A study of Caenorhabditis elegans with 16 samples.

Results

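The comparison described here is that of *osm-3(dh441)* mutants with WT (N2) *C. elegans* on vehicle plates, 8 of the 16 libraries of the series, 4 of each genotype. Both groups were hatched within a short window, grown at 20 °C on *E. coli* to day 1 of adulthood, moved to control plates without tunicamycin (TM) for 6 hr and frozen as whole animals. The mutants carry a single allele with a premature stop in *osm-3*, on chromosome IV. The other 8 libraries hold both genotypes after 6 hr on 10 µg/mL TM, an inhibitor of N-glycosylation, and serve here in 3 ways. They enter the mean that chose the genes, they share the estimate of spread with the vehicle libraries, and they give a second measurement of the genotype difference. Genes were taken from the variance-stabilized (VST) log2 table of all 16 libraries by 1 rule: averaged over the 16 libraries, a gene had to exceed the floor of the table by 1 or more on the log2 scale. Of 8347 named genes 4115 met it. As the mean covers both genotypes, a weak gene can pass through the genotype where it is high. Counts among tested members can then lean towards genes that differ. The gene lists were chosen with earlier results of these data known, so their shares of calls are descriptions and not tests. The transcript of *osm-3* itself was not analysed here, so the genotype labels could not be checked against it.

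OSM-3 is a kinesin motor that carries cargo towards the tip of sensory cilia, the only cilia of the worm. Intraflagellar transport (IFT) moves trains of protein complexes from the ciliary base outwards by kinesins and back by dynein, and sensory receptors reach the cilium with it. Without OSM-3 the outer segments of the amphid and phasmid cilia are lost, the neurons no longer take up lipophilic dye (the Dyf phenotype), and the animals sense their surroundings poorly. Ciliated neurons are a small share of the cells of an adult hermaphrodite, and in whole animals fewer cells of a type cannot be told apart from less RNA per cell.

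Depth on named genes was 6426381 to 7887472 reads in WT vehicle libraries and 4173301 to 7928703 in *osm-3* mutants, where replicate 3 was the shallow one. Of the genes tested, 438 differed between the genotypes at an adjusted p under 0.05 (limma, Benjamini-Hochberg), which is 10.6% of them. Of these, 262 (6.37% of all tested) were higher and 176 (4.28%) lower in *osm-3* mutants. With the replicate number as a block, which treats same-numbered libraries as belonging together, 735 genes were called, 402 higher and 333 lower, all 438 among them. The differences were mostly small. Their median size among the called genes was 0.46 on the log2 scale, 38 genes were higher by more than 1 and 3 lower by more than 1, and the median over all genes tested was -0.04. Leaving out *osm-3* replicate 4 took the count of lower genes to 117. The labels number the replicates but do not say that they are separate cultures, so p-values measure the spread between these samples. In 835 genes (20.3%, of which 9.26% of all tested higher and 11% lower in mutants) the 4 values of one genotype all lay above the 4 of the other, 425 of the called genes among them.

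**Figure D1:**
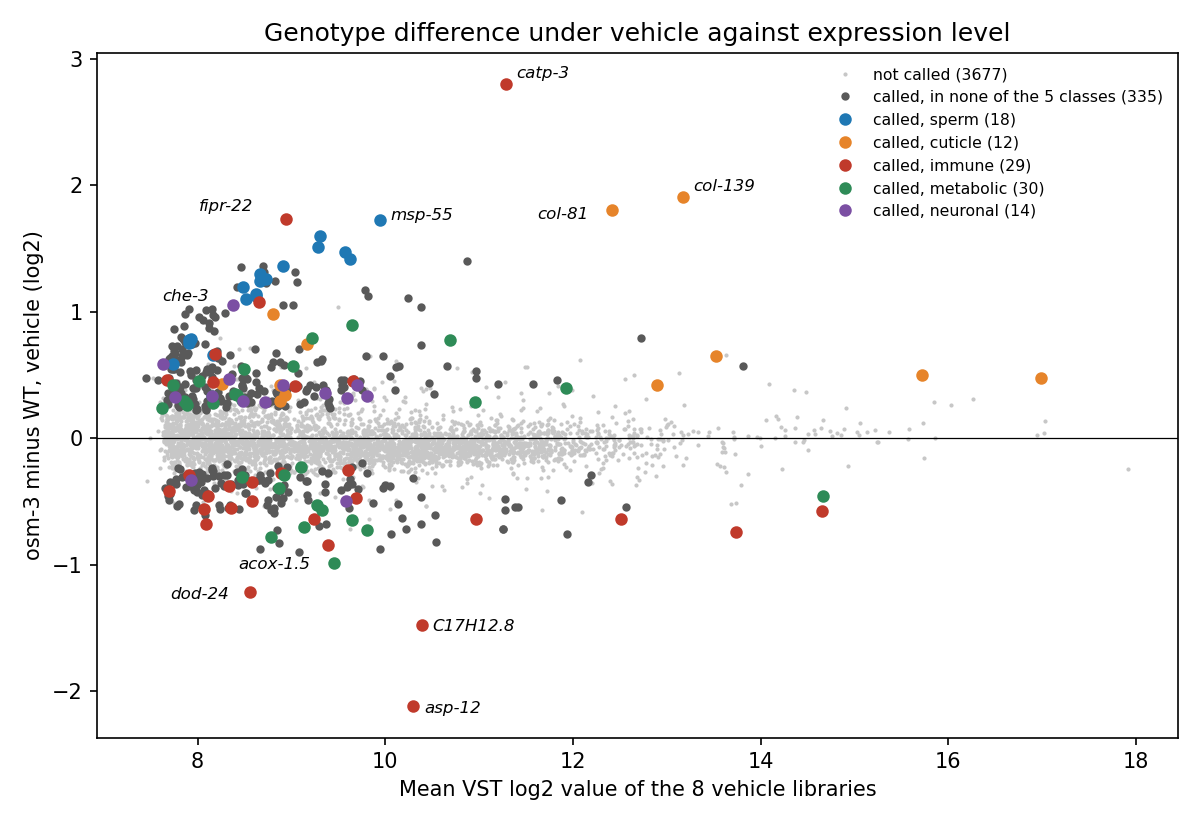
The difference between *osm-3* mutants and WT animals under vehicle (y axis, log2) is plotted for each of the 4115 genes against its mean VST value in the 8 vehicle libraries (x axis, log2). Grey dots did not pass an adjusted p of 0.05, dark dots did, and coloured dots are called genes of the 5 classes. Sperm (18), cuticle (12) and immune genes (8 higher, 21 lower) are among the points farthest from 0.

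The 10 largest increases among called genes whose groups did not overlap were *catp-3* (2.80), *col-139* (1.90), *col-81* (1.80), *fipr-22* (1.73), *msp-55* (1.72), *msp-19* (1.60), *nspd-5* (1.51), *sss-1* (1.47), *msd-4* (1.42) and *C53A3.2* (1.40), all as log2 differences. Most of them are sperm or cuticle genes, and *C53A3.2* encodes a phosphoglycolate phosphatase homolog. The 10 largest decreases were *asp-12* (-2.12), *dod-24* (-1.22), *acox-1.5* (-0.99), *amt-4* (-0.90), *F22E5.1* (-0.88), *cht-1* (-0.87), *lys-10* (-0.85), *F42A10.7* (-0.83), *C35E7.5* (-0.82) and *cyp-25A1* (-0.79). They include an aspartyl protease, a lysozyme, a peroxisomal acyl-CoA oxidase and a cytochrome P450. A difference on the VST scale understates the change of a weakly expressed gene, so the ratio of mean normalized counts (reads divided by the library's size factor) is given beside it where a gene is described.

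Of 21 tested sperm genes 18 were higher in *osm-3* mutants and 0 lower (85.7% called, against 10.6% of all genes). Hermaphrodites make sperm as larvae and then switch to oocytes, so that in day 1 adults transcripts of sperm genes are left from an earlier time. All 9 tested of 10 major sperm protein (*msp*) genes were higher in *osm-3* mutants and none was lower, with a median difference of 1.13 against -0.04 over all genes. MSP is the cytoskeletal protein by which nematode sperm crawl and also the signal by which they stimulate oocyte maturation. *msp-55* (IV:5055631-5056014, WBcel235) had normalized counts of 455, 296, 392 and 303 in the WT replicates 1 to 4 and of 2046, 1230, 1945 and 1298 in the *osm-3* replicates. The lowest mutant library was thus well above the highest WT library, and replicates 1 and 3 were the higher ones in both genotypes. The difference was 1.72 ± 0.19 (SE, n = 4 per group, adjusted p = 9.3e-06), a ratio of 4.51. In *msp-19* the WT libraries held 234, 143, 224 and 162 and the mutant libraries 1140, 629, 1136 and 804, a difference of 1.60 ± 0.17 (adjusted p = 8.9e-06). Both sit in clusters of *msp* copies that are nearly identical, so the split of reads among single copies is uncertain. The 10 *msp* genes in the table together held 808 to 1287 normalized counts in WT animals and 3419 to 5699 in *osm-3* mutants. Whether reads of these genes were assigned to copies outside the table was not examined.

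The 27 other sperm genes in the table, small peptides of the *nspd* and *ssp* families and MSP-domain proteins of the *msd* family among them, gave the same picture. Of the 12 tested, 9 were higher and 0 lower, with a median of 1.17. The filter can admit such genes through their mutant libraries, which raises this share and median. *sss-1*, a sperm-specific peptide gene, had 372, 237, 265 and 237 normalized counts in WT animals and 1281, 925, 1198 and 900 in mutants, a difference of 1.47 ± 0.20 (adjusted p = 7.5e-05). *nspd-5* held 250, 162, 218 and 154 in WT and 958, 732, 954 and 803 in mutants. Without the filter on low values, 16 of the 27 were called, all higher, at a median of 0.318. That fit called 8.54% of all 8347 genes, 5.75% higher and 2.79% lower. All 18 calls in the sperm class were also made under TM, in the same direction and in other libraries. The labels do not say that those libraries came from separate cultures, and they also entered the mean that chose the genes.

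Lists of other germ line and embryo genes were read beside them. None of 15 oocyte and eggshell genes (median -0.02) and none of 14 germ granule and meiosis genes (median -0.04) were called. Among 12 early embryo markers 1 was higher and 2 lower (25% called, against 10.6% of all genes, median -0.23), and their sum was 4553 to 5177 normalized counts in WT animals and 3517 to 3999 in mutants. Of 29 histone genes 6 were lower and 0 higher (20.7% called, median -0.14), with a sum of 189422 to 214680 normalized counts in WT animals and 173085 to 192348 in mutants. The blocked fit called 6 embryo markers and 9 histone genes lower. The higher embryo call was lost without WT replicate 1 or 4 or any *osm-3* replicate, and 1 of the lower ones without WT replicate 1 or 2 or *osm-3* replicate 1, 3 or 4. The part of animal stage or embryo content in the difference of the sperm genes was not tested.

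**Figure D2:**
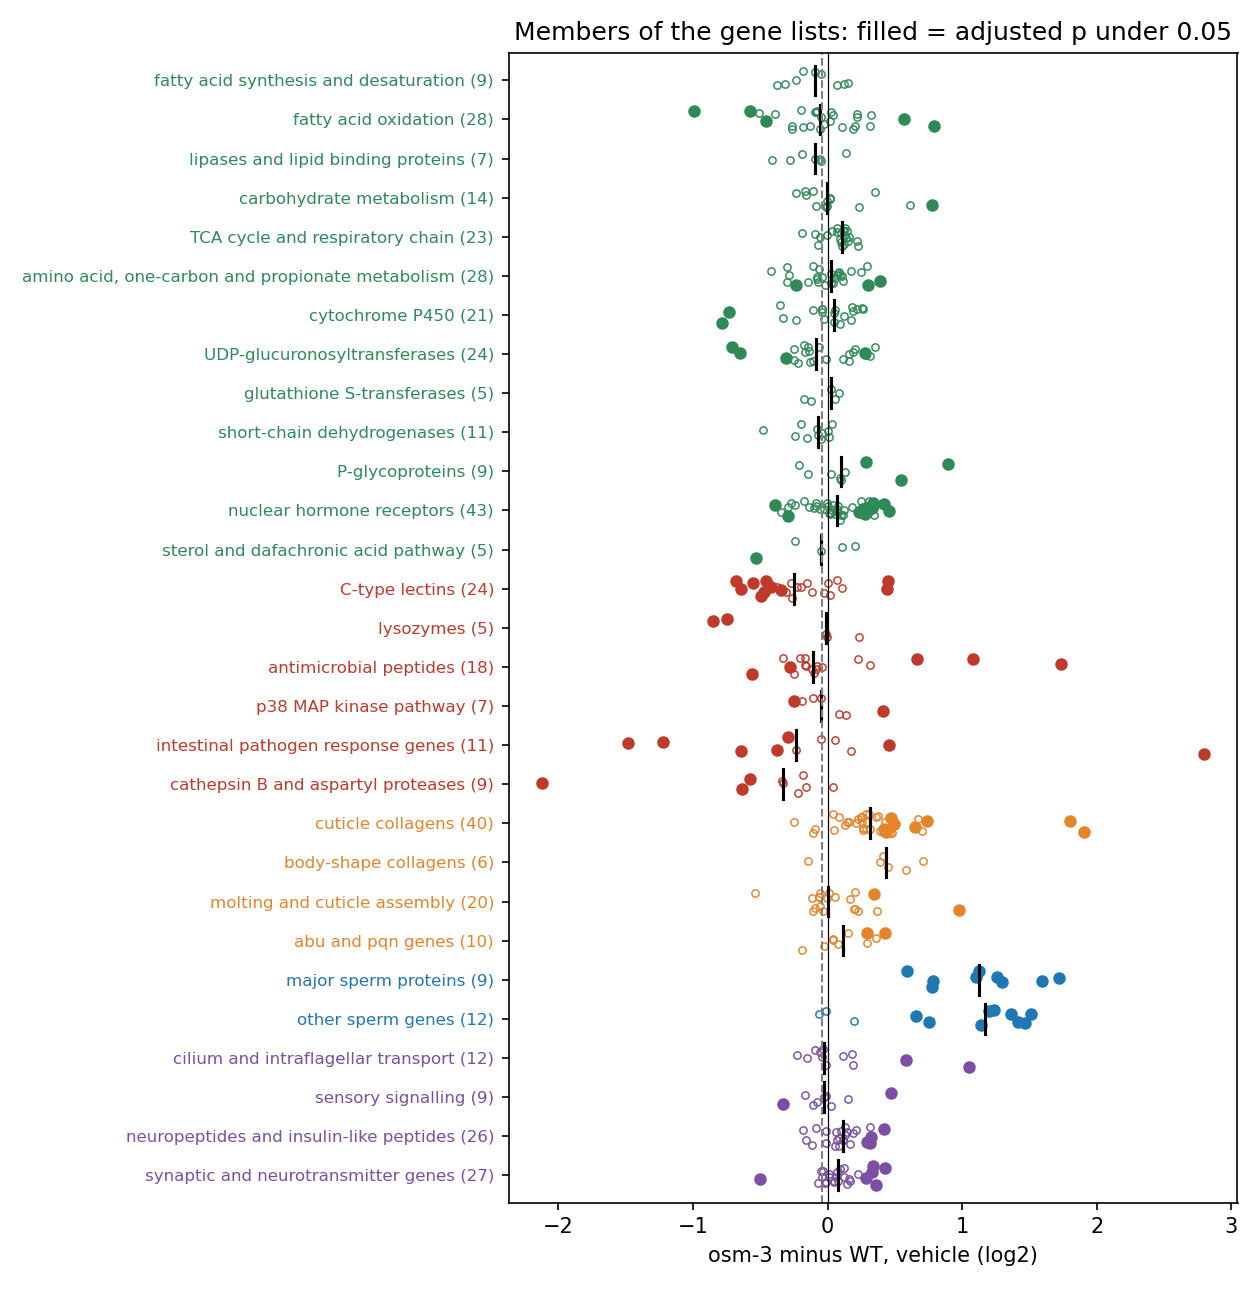
Each circle is a tested gene of a list in 1 of the 5 classes, placed by its difference between *osm-3* mutants and WT animals under vehicle (x axis, log2; the number of tested genes is in brackets). Filled circles passed an adjusted p of 0.05, black bars are list medians and the dashed line is the median of all genes (-0.04); both sperm lists lie above 1, the collagens near 0.3 and the C-type lectins and proteases below 0.

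Of 76 tested cuticle genes 12 were higher in *osm-3* mutants and 0 lower (15.8% called, against 10.6% of all genes). Collagens are the main proteins of the cuticle, made by the epidermis in a burst at each molt and at a lower level in the adult. The blocked fit called 15 of 40 tested *col* genes (68 in the table). Without the block 8 were higher (20% called) and 0 lower, with a median of 0.31. The count was 4 without WT replicate 1 or 2, and likewise without *osm-3* replicate 1 or 3. *col-139* (V:4652863-4653971) had 4954, 4006, 5268 and 4183 normalized counts in WT animals and 20237, 13885, 21363 and 16211 in mutants, which do not overlap. This is a difference of 1.90 ± 0.18 (adjusted p = 3e-06), a ratio of 3.89. *col-81* held 2995, 2335, 3040 and 2621 in WT and 11694, 8007, 12142 and 8899 in mutants, a difference of 1.80 ± 0.19 (adjusted p = 8.8e-06). *col-98* followed with 0.65 ± 0.15 (adjusted p = 0.0071), from 9296 ± 1194 to 14682 ± 1921 normalized counts (mean ± SD, n = 4). In *col-139* and *col-81*, replicates 1 and 3 were again the higher ones in both genotypes, as in *msp-55*.

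The other cuticle lists had few calls. Of 6 body-shape collagens (*dpy*, *sqt* and others) none was called at a median of 0.43, and *dpy-5* spanned 21.1 to 592 normalized counts in WT animals and 131 to 601 in mutants, with WT replicate 4 as the highest WT library. Without that library *dpy-5* passed (1.18, adjusted p = 0.0345), and it did not without any other. The list summed to 732 to 1065 normalized counts in WT replicates 1 to 3, to 3010.1 in WT replicate 4 and to 1369.5 to 3285 in mutants. Of 20 molting and cuticle assembly genes 2 were higher and 0 lower (10% called, against 10.6% of all genes, median 0.00). One was *nas-9*, an astacin-family metalloprotease, with 130, 154, 158 and 140 normalized counts in WT animals and 449, 397, 492 and 416 in mutants. Its difference was 0.98 ± 0.08 (adjusted p = 4.2e-07), and that call was made without any 1 library. The molting list as a whole summed to 13009.8 to 15649.9 normalized counts in WT animals and 14307 to 15157 in mutants. Its count was 1 without WT replicate 1 or 4 or *osm-3* replicate 1 or 2. Of 10 *abu* and *pqn* genes, which encode glutamine- and asparagine-rich proteins, 2 were higher (20% called) and 0 lower. The count was 4 higher under the block and 1 without any 1 library other than WT replicate 3. The part of stage in the collagen difference was not tested.

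**Figure D3:**
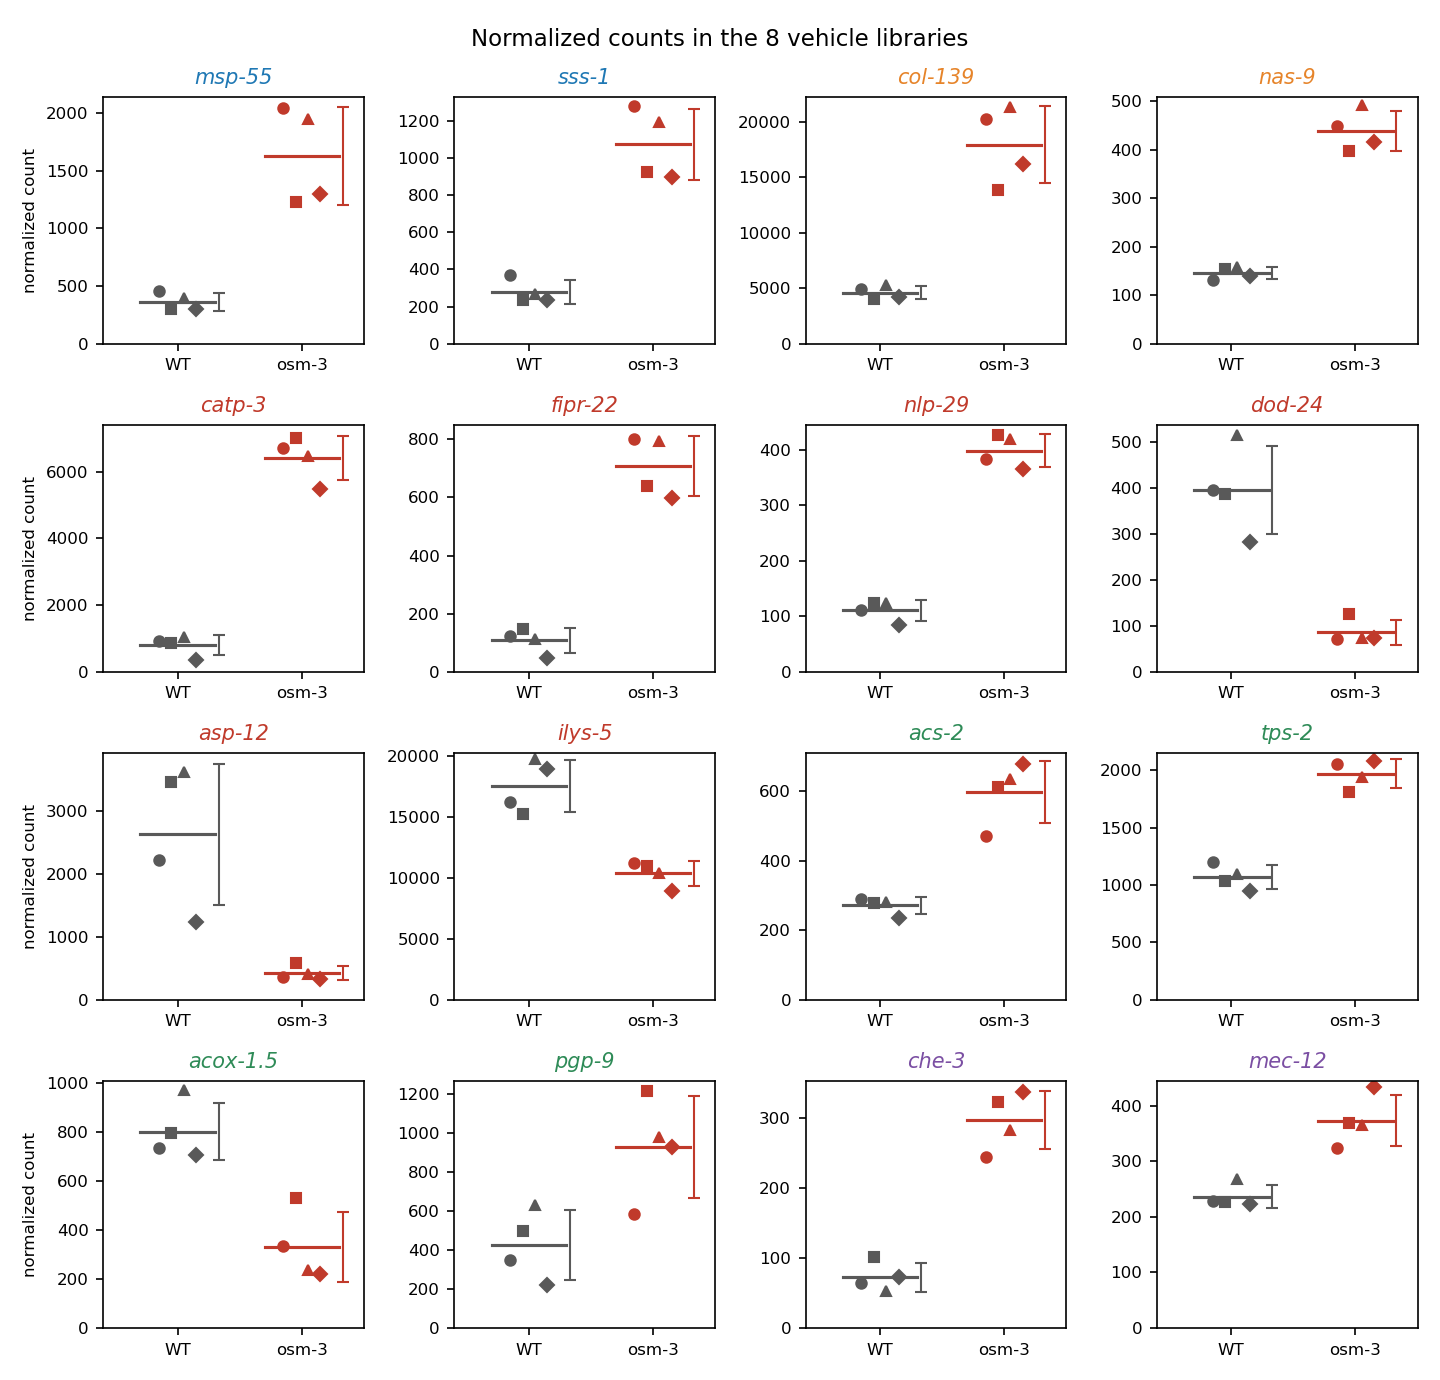
Normalized counts (y axes, from 0) of 16 genes in the 4 WT (grey) and 4 *osm-3* (red) vehicle libraries, with circles, squares, triangles and diamonds for replicates 1 to 4, bars for means and error bars for SD (n = 4). Title colours give the class (blue sperm, orange cuticle, red immune, green metabolic, purple neuronal). The groups overlap only in *pgp-9*. WT replicate 4 is the lowest WT library in *catp-3*, *fipr-22*, *dod-24* and *asp-12*, and also in *sss-1*, *nlp-29*, *acs-2*, *tps-2*, *acox-1.5*, *pgp-9* and *mec-12*.

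Among immune genes, the proteases, lysozymes and most lectins that were called were lower in *osm-3* mutants, and antimicrobial peptide genes were called in both directions. Over the 74 tested genes of the immune lists 8 were higher and 21 lower (39.2% called, against 10.6% of all genes), with a median of -0.17. Of these 29 calls 22 were repeated under TM in the same direction. As the lists were chosen with earlier results of these data known, the share of calls is no test of the class. The worm has no mobile immune cells. It defends itself with secreted lysozymes, lectins, proteases and small peptides, made in the gut against swallowed microbes, largely under the p38 MAP kinase PMK-1, and in the epidermis against fungi and wounds.

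In the gut group, *asp-12*, an aspartyl protease gene (V:8269210-8272056), had the largest decrease of all. Its normalized counts were 2223, 3449, 3604 and 1226 in WT animals and 366, 586, 415 and 331 in mutants. WT replicate 4 was low, but still above every mutant library. The difference was -2.12 ± 0.28 (adjusted p = 4.1e-05), a mean 6.18 times higher in WT. *dod-24* (IV:12940106-12941354), a CUB-like domain gene that responds to pathogens and lies downstream of DAF-16, held 395, 387, 514 and 281 in WT and 70.4, 126, 73.2 and 73.6 in mutants. Its difference was -1.22 ± 0.15 (adjusted p = 2.5e-05). *C17H12.8*, another CUB-like gene of the pathogen response, fell by 1.48 on the log2 scale (SE 0.28, adjusted p = 0.0016), but here the groups overlapped, with 1138 in WT replicate 4 and 1213 in *osm-3* replicate 2. Cathepsin B and aspartyl proteases gave 0 higher and 3 lower of 9 (33.3% called, against 10.6% of all genes, median -0.33). Among these, *cpr-4* stood at 7201 ± 1455 in WT and 4506 ± 405 in mutants (mean ± SD, n = 4, adjusted p = 0.0046).

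Lysozymes and lectins followed. Of 5 tested lysozyme genes 2 were lower and 0 higher (40% called, against 10.6% of all genes). *ilys-5*, an invertebrate-type lysozyme, went from 16225, 15277, 19732 and 18933 normalized counts in WT animals to 11202, 10949.5, 10420 and 8894 in mutants (-0.75 ± 0.14, adjusted p = 0.0011). *lys-10* had 758, 692, 1016 and 463 in WT and 350, 461, 264 and 230 in mutants, so that WT replicate 4 and *osm-3* replicate 2 nearly met (-0.85 ± 0.21, adjusted p = 0.012). C-type lectins are sugar-binding proteins, many of them secreted into the gut lumen. Of 24 tested (93 in the table) 8 were lower and 2 higher (41.7% called), at a median of -0.25. Without *osm-3* replicate 3 or 4, 5 were lower. The count of higher lectins was 1 without WT replicate 2 or 4 or *osm-3* replicate 1, 2 or 3. *clec-66* fell from 172 ± 34.4 to 59.3 ± 8.92 normalized counts (adjusted p = 4.9e-05) and *clec-5* from 220 ± 26.7 to 105 ± 11.6 (adjusted p = 0.00025), while *clec-52* rose from 83.6 ± 12.9 to 160 ± 18.5 (mean ± SD, n = 4, adjusted p = 0.0012). The general intestinal markers were not called (0 of 7, and 1 lower with the block), though their median was -0.16 and their sum 12966 to 18304 in WT animals and 12159 to 13283 in mutants. Their part in the lower values of gut genes was not tested.

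Of 18 tested antimicrobial peptide genes 3 were higher, *nlp-29*, *nlp-31* and *fipr-22*, and 2 lower (27.8% called, against 10.6% of all genes). Whether called or not, 5 of the 18 lay above 0 and 13 below, at a median of -0.11. *nlp-29* and *nlp-31* are neighbours on chromosome V whose products are antimicrobial peptides of the epidermis, induced by fungal infection and wounding. *nlp-29* had 111, 123, 124 and 84.3 normalized counts in WT animals and 383, 427, 420 and 365 in mutants, with no overlap. The difference was 1.08 ± 0.14 (adjusted p = 2.8e-05), a ratio of 3.60. *nlp-31* held 70.4, 71.8, 105 and 47.8 in WT and 171, 213, 248 and 145 in mutants (0.67 ± 0.14, adjusted p = 0.0043). *fipr-22*, of a family named for its likeness to fungus-induced peptides, had 124, 148, 114 and 47.8 in WT and 802, 639, 793 and 599 in mutants (1.73 ± 0.21, adjusted p = 1.9e-05). It has near-identical relatives, which makes its own share of the reads uncertain. The lower ones were the saposin-like *spp-18* and *spp-8*. *spp-8* passed at 0.037 and lost its call, at 0.058 to 0.10, without any 1 library other than *osm-3* replicate 3.

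*catp-3* (V:8076012-8079916) showed the largest difference of the whole comparison. It is listed with the intestinal pathogen response genes, but its product belongs to the family of sodium and potassium pumps. Normalized counts were 933, 862, 1048 and 359 in WT animals and 6703, 7010, 6487 and 5492 in mutants, a difference of 2.80 ± 0.20 (adjusted p = 1.1e-07) and a ratio of 8.03. Under TM it was 1.97 (adjusted p = 1.5e-06). With it, the 11 tested genes of that list counted 2 higher and 5 lower (63.6% called, against 10.6% of all genes), and 3 lower without WT replicate 1 or 3 or *osm-3* replicate 4. That list, like the others, was chosen with earlier results of these data known. *pmk-1* itself was slightly lower, at 654 ± 44.1 in WT and 522 ± 38 in mutants (mean ± SD, n = 4), a difference of -0.25 ± 0.07 (adjusted p = 0.023). That call was lost, at adjusted p-values of 0.054 to 0.093, without WT replicate 2 or 4 or *osm-3* replicate 1, 3 or 4. It was made again under TM (-0.37, adjusted p = 0.00077). Of the 7 genes of the p38 pathway tested, 28.6% were called, against 10.6% of all genes. Among them *pmk-1* was the one called lower (2 lower with the block) and *vhp-1*, a MAP kinase phosphatase, the one called higher (0.41 ± 0.11, adjusted p = 0.017), a call lost at 0.052 to 0.062 without WT replicate 1 or 4 or *osm-3* replicate 2 or 3.

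Of 227 metabolic genes 18 were higher and 12 lower, a share of 13.2% against 10.6% of all genes, at a median of 0.02. The 23 genes of the TCA cycle and respiratory chain (median 0.11), 9 of fatty acid synthesis (median -0.09), 7 of lipases and lipid binding (median -0.10), 5 tested of 17 glutathione S-transferases and the 2 yolk protein genes in the table had 0 calls. Without the filter on low values 2 of the 17 glutathione S-transferases were called higher and 0 lower, in a fit that called 5.75% of all genes higher. The blocked fit called 1 gene of fatty acid synthesis and 2 of the lipase list lower. At an unadjusted p under 0.05 the whole comparison had 939 genes.

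Of 28 tested genes of fatty acid oxidation 2 were higher and 3 lower at a median of -0.05, 17.9% called against 10.6% of all genes, and 5 and 5 with the replicate block. *acs-2*, a mitochondrial acyl-CoA synthetase that activates fatty acids for oxidation and is a known target of the fasting response, had 291, 279, 283 and 237 normalized counts in WT animals and 472, 611, 636 and 678 in mutants. The difference was 0.79 ± 0.15 (adjusted p = 0.0014), a ratio of 2.2. The peroxisomal acyl-CoA oxidases, which also shorten the side chains of the ascaroside pheromones, moved apart. *acox-1.3* held 223, 222, 287 and 254 in WT and 421, 380, 515 and 461 in mutants (0.57 ± 0.09, adjusted p = 0.00025). *acox-1.5* (III:9586618-9592192) held 735, 793, 969 and 707 in WT and 335, 532, 236 and 219 in mutants (-0.99 ± 0.18, adjusted p = 0.00085). *cpt-5*, a carnitine palmitoyltransferase gene, fell from 595 ± 87.8 to 342 ± 27 (mean ± SD, n = 4, adjusted p = 0.0048). Of the carbohydrate genes, 1 of 14 was called (7.14%), 3 with the block and 2 without WT replicate 4. It was *tps-2*, a trehalose-6-phosphate synthase, with 1203, 1036, 1092 and 952 in WT animals and 2055, 1808, 1938 and 2081 in mutants (0.78 ± 0.12, adjusted p = 0.00025). Trehalose is a storage sugar and stress protectant of the worm.

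Propionate, a product of the breakdown of some amino acids and odd-chain fatty acids, is removed by a B12-dependent carboxylase route or, when that route is short, by a shunt. *acdh-1*, the first enzyme of the shunt, stood at 30403 ± 3717 normalized counts in WT animals and 21997 ± 2115 in mutants (-0.46 ± 0.13, adjusted p = 0.025). That call was lost, at adjusted p-values of 0.051 to 0.090, without WT replicate 1 or 3 or *osm-3* replicate 1, 3 or 4, but was made again under TM (-0.52, adjusted p = 0.008). *hach-1*, a later step, chosen after its values were seen, held 5170, 4191, 5673 and 4700 in WT and 2874, 2771, 3057 and 2606 in mutants (-0.76 ± 0.10, adjusted p = 7.4e-05). *pcca-1*, the propionyl-CoA carboxylase alpha subunit of the other route, had 3206 ± 358 in WT and 4263 ± 336 in mutants (0.39 ± 0.11, adjusted p = 0.029). Its call was lost, at 0.061 to 0.11, without WT replicate 1 or 2 or *osm-3* replicate 1, 3 or 4. Of 28 tested genes in the list of amino acid, one-carbon and propionate metabolism, 2 were higher and 1 lower, at a median of 0.03. None was called without WT replicate 1 or 2 or *osm-3* replicate 1 or 4. Differences in that list ran from -0.42 to 0.39, so *acdh-1* and *hach-1* are not members. The genes named here are only a part of the 2 routes, and whether the routes changed as a whole was not tested.

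Xenobiotic metabolism is of interest here because the study examined drug resistance. Cytochrome P450s oxidise foreign compounds, UDP-glucuronosyltransferases conjugate them and P-glycoproteins (PGPs), ATP-driven pumps of the cell membrane, export them. Among 21 cytochrome P450 genes 0 were higher and 2 lower (9.52% called, against 10.6% of all genes, and 4 lower with the block). The 2 lower ones were the neighbours *cyp-25A1* (III:3832591-3834586) and *cyp-25A2*. *cyp-25A1* had 332, 309, 448 and 506 normalized counts in WT animals and 218, 205, 146 and 99.4 in mutants (-0.79 ± 0.19, adjusted p = 0.01). Of 24 UDP-glucuronosyltransferases 1 was higher and 3 lower (16.7% called), and 5 and 4 with the block. The higher one was lost without any 1 library other than WT replicate 3. *ugt-64* fell from 767, 831, 806 and 821 to 401, 423, 466 and 512 (-0.65 ± 0.07, adjusted p = 1.4e-05), and *ugt-63* from 530 ± 50.4 to 261 ± 37.5 (adjusted p = 0.0074). The latter was not called under TM (0.18, adjusted p = 0.42). Without the filter on low values, 1 of 44 cytochrome P450 genes and 1 of 35 UDP-glucuronosyltransferases in the table were called higher, and 3 of each lower. That fit called 5.75% of all genes higher and 2.79% lower.

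Of 9 tested *pgp* genes 3 were higher and 0 lower (33.3% called, against 10.6% of all genes), at a median of 0.10. The count was 1 without WT replicate 1 or 4 or *osm-3* replicate 3, and 0 without *osm-3* replicate 4. *pgp-9* had 348, 500, 630 and 221 normalized counts in WT animals and 582, 1217, 978 and 927 in mutants. WT replicate 3 was above *osm-3* replicate 1, so the groups overlapped. The difference was 0.90 ± 0.24 (adjusted p = 0.022). Without WT replicate 1 or 4 or *osm-3* replicate 2, 3 or 4 the adjusted p was 0.051 to 0.085, and under TM the difference was 1.27 (adjusted p = 0.0011). *pgp-14* held 121, 117, 120 and 158 in WT and 217, 196, 265 and 355 in mutants (0.54 ± 0.13, adjusted p = 0.012). Its adjusted p was 0.0503 without *osm-3* replicate 4, and it was called under TM (0.61, adjusted p = 0.0038). *pgp-2*, the third, differed by 0.28 ± 0.08 (adjusted p = 0.039), at 0.062 to 0.12 without any 1 library other than *osm-3* replicate 2. Of the pumps the study examined singly, *pgp-3* and *pgp-8* were not analysed here and 4 others were not called. *pgp-5* had 167 ± 34.7 in WT and 128 ± 47.8 in mutants, *pgp-11* 395 ± 66.9 and 339 ± 24.7, *pgp-12* 48.3 ± 14.9 and 58.1 ± 3.73, and *pgp-13* 57.5 ± 6.06 and 61 ± 14.6 (mean ± SD, n = 4 each, adjusted p = 0.31, 0.49, 0.59 and 0.91).

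Nuclear hormone receptors sense lipids, steroids and foreign compounds. Of 43 tested (113 in the table) 9 were higher and 2 lower (25.6% called, against 10.6% of all genes), and 14 and 3 with the block. Leaving out single libraries gave 5 to 10 higher, with 5 without WT replicate 4 or *osm-3* replicate 2. *nhr-156* rose from 63.9 ± 10.1 to 133 ± 8.67 normalized counts (adjusted p = 0.00025), while *nhr-47* fell from 351 ± 26 to 230 ± 27.3 (mean ± SD, n = 4, adjusted p = 0.00086). *nhr-8*, a receptor the study examined with the PGPs, had 341, 343, 471 and 283 in WT animals and 292, 341, 231 and 248 in mutants. The groups overlapped and the difference of -0.24 ± 0.11 did not pass (adjusted p = 0.22). In the sterol pathway 1 of 5 tested genes was called (20%, against 10.6% of all genes). It was *daf-36*, the oxygenase of the first step from cholesterol to dafachronic acid, with 532, 471, 735 and 507 in WT and 340, 361, 315 and 310 in mutants (-0.53 ± 0.13, adjusted p = 0.012).

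Of 650 genes in the neuronal lists 74 passed the filter, and the rest lay below it. Of these, 12 were higher and 2 lower in *osm-3* mutants (18.9% called, against 10.6% of all genes), at a median of 0.09. Of 441 chemoreceptor genes 1 was tested, 17 had more than 10 reads in any vehicle library, and their sum was 511 to 821 normalized counts in WT animals and 592 to 779 in mutants. The tested one did not pass. The fit without a filter called 1 higher and 2 lower, all on few reads. *str-144* had 4, 4, 9 and 1 reads in WT animals and 22, 24, 10 and 15 in mutants (adjusted p = 0.0043). *str-74* had 4, 6, 6 and 3 in WT and 0, 2, 0 and 0 in mutants (adjusted p = 0.0098), and *str-47* 2, 2, 1 and 1 in WT and 0 in every mutant library (adjusted p = 0.034). For most chemoreceptor genes this depth could not show a difference.

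Every cilium gene called was higher in *osm-3* mutants. The largest difference was that of *che-3* (I:8062007-8081671), the heavy chain of the dynein that carries IFT trains back to the ciliary base. Its normalized counts were 64.2, 100, 52 and 72.2 in WT animals and 244, 322, 282 and 336 in mutants, with no overlap. The difference was 1.05 ± 0.10 (adjusted p = 3e-06), a ratio of 4.10. *che-11*, a subunit of IFT complex A, the complex of the return journey, held 20.2, 30.6, 18.4 and 19.3 in WT and 75.7, 90.7, 80 and 79.3 in mutants (0.59 ± 0.08, adjusted p = 8.2e-05). These were the calls among 12 tested of 41 genes in the cilium list (16.7%, against 10.6% of all genes), and 0 were lower. *che-11* lay less than 1 log2 unit above the floor in every WT vehicle library, so its mutant libraries helped it to pass the filter. The list was drawn partly by gene name and also holds some genes that do not act within the cilium.

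Most cilium genes lie below the filter, so the fit without it is given as well. It called 10 of the 41 higher and 0 lower, while 5.75% of all genes were called higher in that fit. They were *che-3*, *che-11*, *ift-81*, *daf-10*, *bbs-2*, *dyf-13*, *ift-74*, *arl-3*, *che-2* and *tba-5*. *ift-81* of complex B, the complex of the outward journey, had 22, 38, 22 and 23 reads in WT animals and 103, 111, 47 and 95 in mutants (adjusted p = 5.4e-06), where the 47 come from the shallow replicate 3. *daf-10*, a further complex A subunit, had 25, 26, 27 and 21 reads in WT and 72, 107, 27 and 76 in mutants (adjusted p = 0.0022). *bbs-2*, of the BBSome that links membrane cargo to the trains, had 7, 8, 16 and 7 in WT and 41, 35, 17 and 24 in mutants (adjusted p = 0.0041). In normalized counts the 2 groups were separate in 9 of the 10, all but *tba-5*, a ciliary tubulin. These 10 were chosen by the same comparison, so the separation adds no support. In the filtered fit 425 of all 438 called genes were separate as well, and 20.3% of all genes tested. The complex B subunit *che-2* was one of the weakest, at 4, 8, 7 and 3 reads in WT and 13, 24, 12 and 19 in mutants.

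The remaining cilium genes did not pass. *klp-11* and *kap-1*, a motor and the accessory subunit of the second anterograde kinesin, which shares the inner ciliary segment with OSM-3, had 143 ± 11.6 and 67.6 ± 15.3 normalized counts in WT animals and 141 ± 22.3 and 56.2 ± 9.35 in mutants (mean ± SD, n = 4, adjusted p = 0.95 and 0.50). *daf-19*, the RFX transcription factor that switches on many cilium genes, had 184 ± 7.21 and 175 ± 23.4 (adjusted p = 0.88). *dyf-3*, an IFT complex B gene, had 334 ± 39.4 and 262 ± 41.1 (adjusted p = 0.17, and 0.037 in the 8 vehicle libraries alone with the replicate block).

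**Figure D4:**
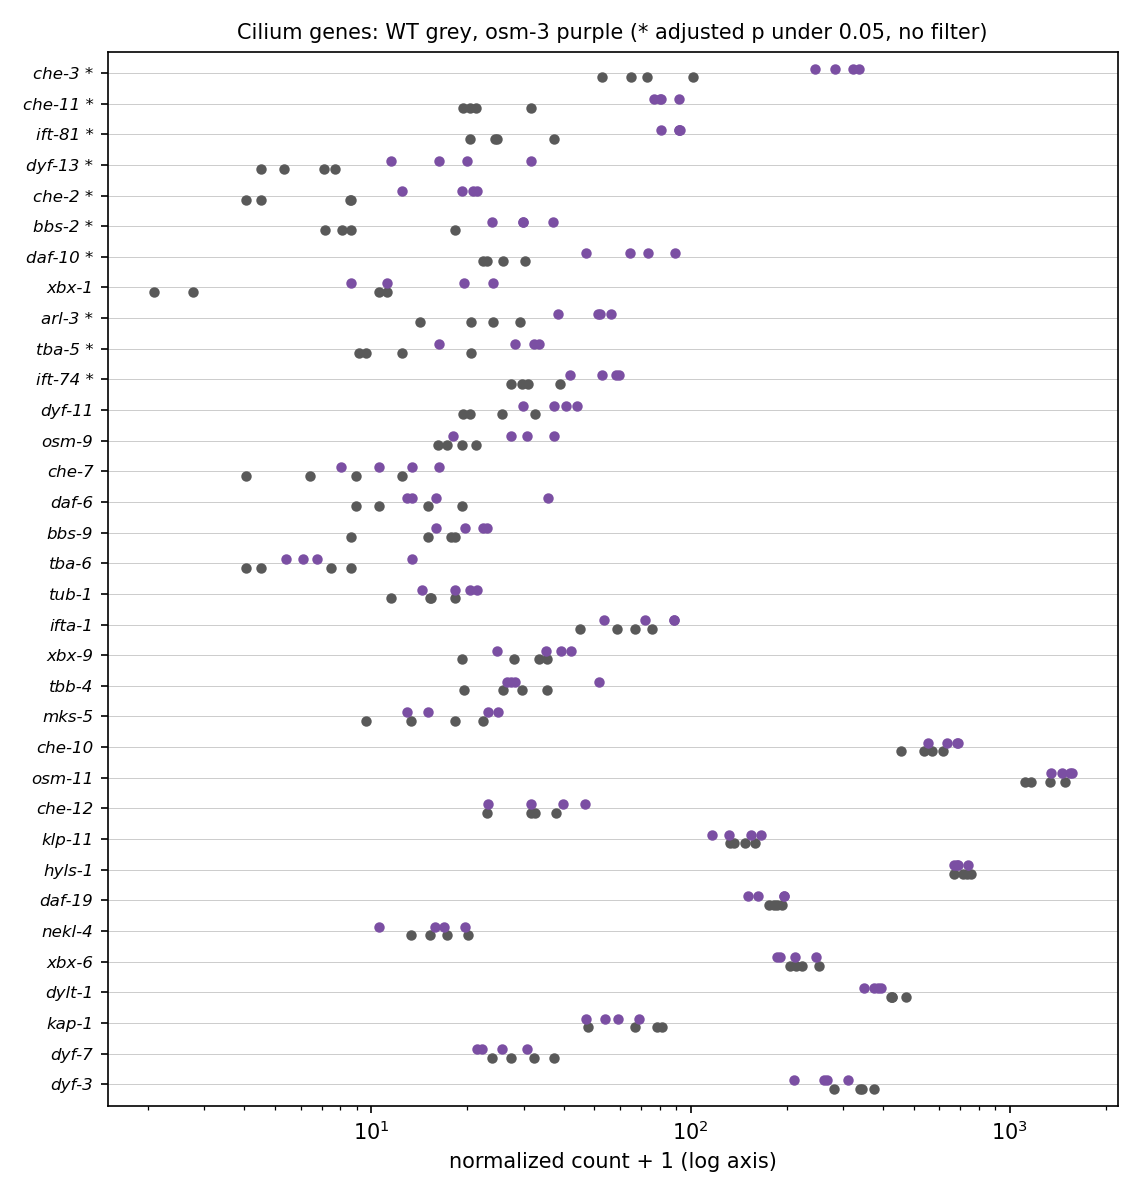
Normalized counts plus 1 (x axis, log scale) of the 34 cilium genes with a summed group mean over 10, each with its 4 WT (grey) and 4 *osm-3* (purple) vehicle libraries, ordered by the ratio of the group means. Asterisks mark the 10 genes with an adjusted p under 0.05 in the fit without a filter. The groups are separate in *che-3* and *che-11* and overlap in the kinesin genes *klp-11* and *kap-1*.

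Of 9 sensory signalling genes tested 1 was higher and 1 lower (22.2% called, against 10.6% of all genes). *gpa-12*, a G protein alpha subunit of the G12 class, rose from 99.4, 109, 170 and 70.1 normalized counts to 233, 208, 204 and 173 (0.47 ± 0.11, adjusted p = 0.0069), and *gcy-11*, a receptor guanylyl cyclase, fell from 106 ± 8.97 to 60.6 ± 4.85 (mean ± SD, n = 4) (-0.33 ± 0.07, adjusted p = 0.0026). Of 26 neuropeptide and processing genes 4 were higher and 0 lower (15.4% called), at a median of 0.11. The count was 2 without *osm-3* replicate 2. Both main processing enzymes were among them. *egl-21*, the carboxypeptidase that trims neuropeptide precursors, had 497, 487, 500 and 521 in WT animals and 651, 625, 665 and 730 in mutants (0.32 ± 0.07, adjusted p = 0.0081). *egl-3*, the proprotein convertase that cuts them first, differed by 0.42 ± 0.11 (adjusted p = 0.016), and at 0.054 without WT replicate 2 and 0.067 without *osm-3* replicate 4.

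Of 27 synaptic and neurotransmitter genes 5 were higher and 1 lower (22.2% called, against 10.6% of all genes, median 0.08). The count of higher genes was 1 without WT replicate 2, 2 without WT replicate 1 or *osm-3* replicate 3 or 4, and 3 without WT replicate 3 or 4 or *osm-3* replicate 2. The lower call was lost without any 1 library other than *osm-3* replicate 2. *mec-12*, an alpha-tubulin of touch receptor neurons that is also made elsewhere, kept its call throughout, with 228, 226, 268 and 224 in WT animals and 323, 369, 366 and 434 in mutants (0.42 ± 0.09, adjusted p = 0.0034). Muscle markers, read as another tissue, had a median of 0.22, with 14 of 14 above 0, 1 called higher and 5 with the block. The called one was lost without WT replicate 1, 2 or 4 or *osm-3* replicate 1 or 3, and 2 were called without WT replicate 3. Their sum was 58372 to 86341 normalized counts in WT animals and 79122 to 103275 in mutants, and its part in the neuronal differences was not tested.

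Stress lists outside these classes were also read. Of 18 genes for ER folding and the unfolded protein response 1 was higher and 2 lower (16.7% called, against 10.6% of all genes, median -0.07), the lower ones being the disulfide isomerase *pdi-6* (-0.55 ± 0.09, adjusted p = 0.00042) and the BiP co-chaperone *dnj-7* (adjusted p = 0.013). The call of *dnj-7* was lost, at 0.053 and 0.058, without WT replicate 4 or *osm-3* replicate 1, and the higher one without any 1 library other than WT replicate 2 or 3. *hsp-4*, which encodes BiP, had 5561 ± 578 normalized counts in WT animals and 5033 ± 645 in mutants (mean ± SD, n = 4) and did not pass (-0.14 ± 0.13, adjusted p = 0.60). None of 10 heat shock protein genes (2 higher with the block) and none of 41 ribosomal protein genes was called. In the list of genes associated with DAF-16, the FOXO factor of insulin signalling, 4 of 15 were higher and 1, *dod-24*, lower (33.3% called). The count of higher genes was 2 without WT replicate 1, 2 or 3 or *osm-3* replicate 1, 3 or 4. The kinase gene *akt-2* rose from 219 ± 25.6 to 405 ± 27.8 (mean ± SD, n = 4, adjusted p = 0.00051).

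The same genotype difference was measured a second time in the 8 TM libraries, which are other libraries, though both differences come from 1 fit with 1 estimate of spread. The TM libraries also entered the mean that chose the genes, and the labels do not say that they came from separate cultures. Under TM 792 genes (19.2%) were called, 391 higher (9.5%) and 401 lower (9.74%). Of the 438 genes called under vehicle, 429 had the same sign under TM and 332 were called there in the same direction, while 1 was called in the opposite one, *ckb-2*, a choline kinase gene (0.38 under vehicle, -1.76 under TM). Its vehicle call (adjusted p = 0.049) was lost, at 0.056 to 0.17, without any 1 library other than WT replicate 2 or 3. By class, the calls repeated under TM were 18 of 18 in sperm, 11 of 12 in cuticle, 22 of 29 in immune, 15 of 30 in metabolic and 8 of 14 in neuronal genes. The difference between the 2 conditions was itself tested and passed in 20 genes (0.486%), of which 8 were called under vehicle. The median of the collagens was 0.31 under vehicle and 1.05 under TM. *col-98* was the collagen called under vehicle whose change between conditions passed its test, from 0.65 to 1.66 (adjusted p = 0.038).

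**Figure D5:**
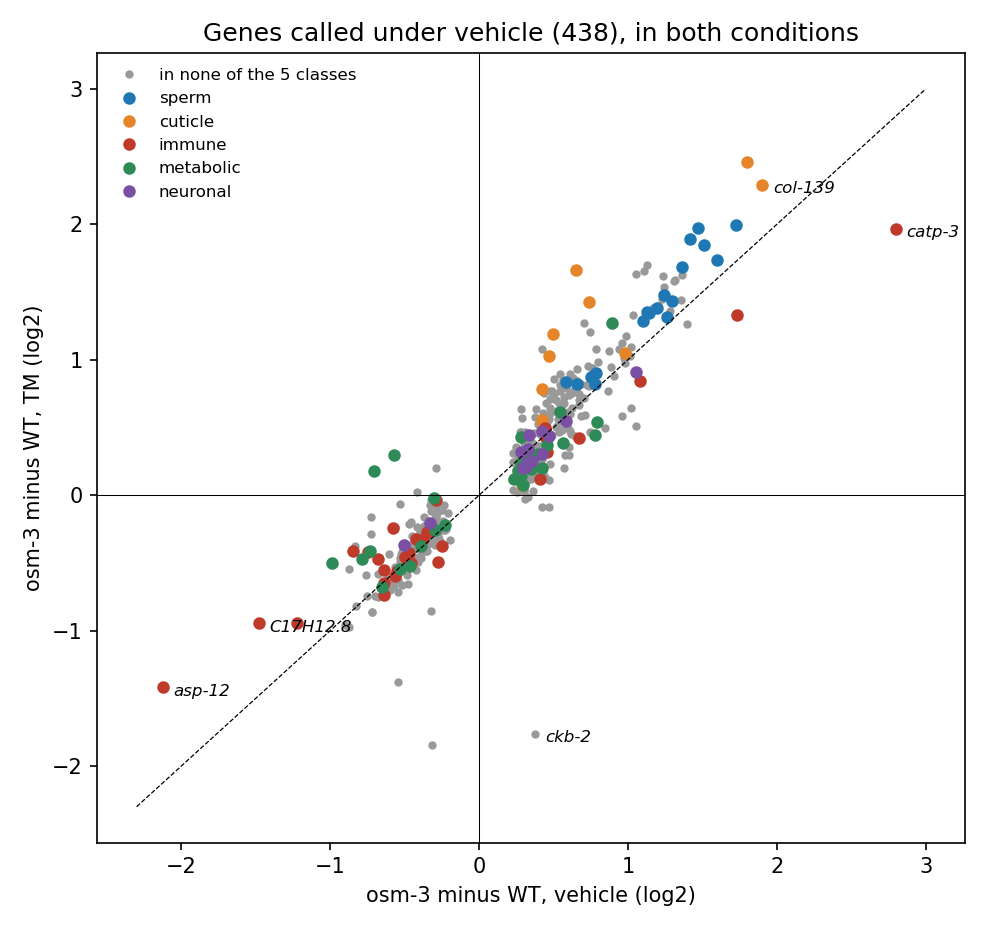
Difference between *osm-3* mutants and WT animals under vehicle (x axis, log2) and under TM (y axis, log2) for the 438 genes called under vehicle, coloured by class, with the dashed line marking equal differences. Most points lie in the quadrants of equal sign (429 of 438). *catp-3* is at 2.80 and 1.97, *asp-12* at -2.12 and -1.42, and *ckb-2* is the gene called with opposite signs.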

How the data were processed

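RNA from whole animals was sequenced in 16 libraries, 4 of each genotype and treatment, and the 8 vehicle libraries were compared. The authors aligned reads to Ensembl 94 transcripts with kallisto 0.43.0-1 and deposited log2 values after the variance-stabilizing transformation of DESeq2 1.16.1. Their tables of fold changes and p-values for 4 comparisons were not used. Inverting the transformation gave whole reads for 100% of values (within 0.01), and 1 row without a gene name, 0.177% to 0.469% of vehicle reads, was left out. Group means of all 16 libraries were fitted with limma 3.58.1 (R 4.3.3, trended eBayes, Benjamini-Hochberg over 4115 genes), without a replicate term. Same-numbered libraries deviated together in every pair (r = 0.182 to 0.501). Other pairs had r = -0.719 to 0.459, so the ranges overlap. The labels do not say that the numbers pair the libraries, so a blocked fit was run beside the unblocked one. The test was checked on simulated data. Named genes were the 10 largest called changes in each direction with groups that did not overlap, up to 3 called genes of each list per direction by p, and genes the study names singly. The members and lists were chosen with earlier results of these data known. Positions are from Ensembl release 115 (WBcel235), matched for 8245 genes. Other fits tried are given with their effect in the closing section.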

Additional observations from a re-analysis of the deposited data

Results flagged for a closer look

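In 8 of 164 sets of 4 replicate values, a single value lay apart from the others, and chance alone picks out about 1 set in 20. In WT animals these were the VST log2 values of *amt-1* in replicate 4 (7.388), *che-11* in replicate 2 (7.456), *fkh-3* in replicate 3 (8.16), *gcy-11* in replicate 1 (8.169), *mec-12* in replicate 3 (8.813) and *pgp-14* in replicate 4 (8.368). In *osm-3* mutants they were *dod-24* in replicate 2 (8.206) and the depth of replicate 3, at 4173301 reads on named genes.

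For 6 of the genes named here, of 20 among all genes tested, the genotype difference under TM was itself different from that under vehicle (limma, interaction term, adjusted p under 0.05). The change, TM minus vehicle on the log2 scale, was -2.14 in *ckb-2*, 1.01 in *col-98*, 0.87 in *cpt-5*, -0.533 in *dnj-7*, -0.893 in *hsp-4* and -0.831 in *pdi-6*.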

How the results depend on the processing

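Across 21 alternatives, 57 of 68 called genes named in the text kept their call in each one that gave a value, and 0 reversed. Of 11 named genes not called, 5 gained a call somewhere: with weights *pgp-5* (-0.25), *nhr-8* (-0.187), *kap-1* (-0.124) and *dyf-3* (-0.238), which also passed with the block in the vehicle libraries alone, and *dpy-5* without WT replicate 4. Calls numbered 438 (262 higher, 176 lower) and 315 to 399 without any 1 library, with 117 to 171 lower. They were 713 (480 higher) with no filter, 52 (21 higher, 31 lower) with a filter of 3 log2 units, and 1420 (651 and 769) with weights for each library. With the replicate block there were 735 (402 and 333), and 997 (494 and 503) in the 8 vehicle libraries alone, both holding all 438. The vehicle libraries alone without a block gave 275 lower. The median of the collagens (0.31) was 0.486 on log2 of the normalized count plus 1 and 0.489 with voom. That of the major sperm proteins (1.13) was 2.0 and 1.99 there and 1.72 under the stricter filter, and that of other sperm genes (1.17) was 1.92 in both. That of cilium genes (-0.02) was 0.0748 under the stricter filter. Neither *klp-11* (-0.01) nor *pgp-13* (0.03) was called, and both changed sign: *klp-11* to 0.0363 with weights, 0.00133 with centring and 0.0119 with a fitted loess trend on transcript length removed (an alternative added once the data had been seen), and -0.0531 to 0.0326 without any 1 library, and *pgp-13* to -0.0655 with weights, -0.0404 with quantile normalization, -0.00946 with that trend removed and -0.0149 to 0.0647 without any 1 library. The cause was not tested. The stricter filter gave no value for 54 of the named genes. Depth limits genes of few reads, chemoreceptors and most cilium genes among them.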

Other observations

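The genes below belong to no list of the report and were chosen after their values were seen. The ammonium transporter genes *amt-1* and *amt-4* are neighbours on chromosome X (4571437-4573914 and 4565302-4569620) and differed in opposite directions. *amt-1* had 40.5, 44, 41.1 and 25.4 normalized counts in WT animals and 154, 157, 216 and 218 in *osm-3* mutants (0.96, limma adjusted p = 6.6e-06). *amt-4* had 646, 476, 611 and 489 in WT and 228, 198, 213 and 239 in mutants (-0.90, adjusted p = 2.6e-05).

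*sqrd-1*, a sulfide quinone oxidoreductase that detoxifies hydrogen sulfide, rose from 138 ± 23.7 to 320 ± 61.7 normalized counts (mean ± SD, n = 4, limma adjusted p = 0.00071). The tyrosinase genes *tyr-1* and *tyr-4* rose by 0.60 and 0.56 on the log2 scale (adjusted p = 1.9e-05 and 0.00019). The gap junction gene *inx-2* fell by 0.55 (adjusted p = 0.00014), and the neighbouring forkhead genes *fkh-3* and *fkh-4* fell by 0.46 and 0.57 (adjusted p = 0.00032 and 6.6e-05). Chromosome X, which carries all 3 of these lower genes, had 37 genes higher (5.68%) and 51 lower (7.83%) of 651 tested, against 6.37% and 4.28% of all genes. Chromosome V had 68 higher (9.04%) and 29 lower (3.86%) of 752. Chromosome IV, which carries *osm-3* and 13 of the 21 tested sperm genes, had 49 higher (7.35%) and 30 lower (4.5%) of 667.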
